A study of Mus musculus with 48 samples.

Results

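The 40 genes described here act in the G2 phase and in mitosis, and their messenger RNA levels were followed across 48 subcutaneous mouse melanomas. The genes were taken from a fixed list of mitotic genes and not by a measured value, though the list was chosen with earlier results of these data known. All 40 of the list were found among the 55450 genes of the count table. The RNA came from whole B16-D5 tumors, a transplanted mouse melanoma line, and was sequenced to ask how PD-1 blockade and inducible nitric oxide synthase (iNOS) in the host affect melanoma. C57BL/6J wild-type (WT) mice and iNOS KO mice, which lack the enzyme in the host but not in the injected tumor cells, entered the study at an age of 4 weeks and were kept for 2 weeks before use. The tumor cells were placed under the skin of the flank 8 days before therapy began. The first experiment (30 tumors, all from WT mice) had an untreated group at 0 h, and untreated, IgG and anti-PD-1 groups at 6 h, day 1 and day 3. The second experiment (18 tumors, all at day 7) had untreated, IgG and anti-PD-1 groups in WT and in iNOS KO mice. Each of these 16 conditions held 3 tumors. The antibodies were given as 250 µg in 200 µL on days 0 and 3, so that the day 1 tumors had met 1 dose.

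Mitosis is driven by cyclin-dependent kinase 1, which becomes active when bound to a B-type cyclin, and is ended when the anaphase-promoting complex marks those cyclins and securin for destruction. Between these steps the chromosomes condense, spindle fibres attach to kinetochores, the spindle checkpoint holds anaphase back until all are attached, and cytokinesis then divides the cell. The genes that encode this machinery are switched on together late in the cell cycle and are kept low in G1 and in resting cells, so that their summed level is widely read as a sign of the share of cycling cells. In a melanoma the tumor cells divide, and activated lymphocytes divide as well. In RNA from whole tumors, fewer dividing cells and less mitotic RNA per cell cannot be told apart.

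The promoters of such genes often carry a cell cycle genes homology region (CHR), with the core TTTGAA, and boxes with the letters CCAAT, which bind NF-Y. Of the 40 genes, 34 had a promoter in the RefSeq promoter sequences of the build GRCm38.p6, taken from 250 bases before to 50 bases after the start of the transcript. The core TTTGAA, read on either strand, was present in 25 of these 34 promoters (73.5%) and in 18.1% of all 27025 promoters of that length. The related core TTCGAA was present in 3 of the 34 (8.82%) and in 1.57% of all. CCAAT on either strand was present in 27 of the 34 (79.4%), against 37.9% of all, and at least 2 copies in 55.9% against 12.2%. A promoter with both kinds of element was found for 24 of the 34 (70.6%) and for 7.70% of all promoters. These are matches of letters in a window, not measured binding. The stretches upstream of the start of 6 members are shown here, since these B-type cyclins, kinases and genes of the anaphase-promoting complex are among those the results name and since they show how the elements are arranged. Capitals mark TTTGAA and also CCAAT, with their reverse complements. The sequences run 5′ to 3′ along the gene. Each stretch stops at the RefSeq start or where the annotated gene begins, whichever comes first.
Ccnb1, chr13:100786571-100786736, minus strand: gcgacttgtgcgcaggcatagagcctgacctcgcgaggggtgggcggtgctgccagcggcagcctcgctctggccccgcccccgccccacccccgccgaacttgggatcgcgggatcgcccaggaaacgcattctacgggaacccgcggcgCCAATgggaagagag
Ccnb2, chr9:70421555-70421804, minus strand: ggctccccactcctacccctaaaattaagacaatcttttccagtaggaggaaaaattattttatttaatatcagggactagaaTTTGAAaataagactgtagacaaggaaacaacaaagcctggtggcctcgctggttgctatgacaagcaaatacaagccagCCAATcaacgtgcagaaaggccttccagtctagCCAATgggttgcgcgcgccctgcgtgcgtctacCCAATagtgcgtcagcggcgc
Cdc20, chr4:118437353-118437593, minus strand: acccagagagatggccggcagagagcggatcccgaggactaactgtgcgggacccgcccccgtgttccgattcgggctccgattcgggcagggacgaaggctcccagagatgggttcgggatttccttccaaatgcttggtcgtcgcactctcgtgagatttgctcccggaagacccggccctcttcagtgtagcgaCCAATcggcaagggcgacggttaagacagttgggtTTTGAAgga
Plk1, chr7:122159185-122159434, plus strand: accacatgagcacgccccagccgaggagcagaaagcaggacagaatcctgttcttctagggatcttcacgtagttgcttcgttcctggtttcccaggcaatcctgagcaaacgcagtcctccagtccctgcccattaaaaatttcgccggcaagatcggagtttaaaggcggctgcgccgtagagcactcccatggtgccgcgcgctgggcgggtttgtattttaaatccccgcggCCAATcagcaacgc
Aurka, chr2:172370571-172370820, minus strand: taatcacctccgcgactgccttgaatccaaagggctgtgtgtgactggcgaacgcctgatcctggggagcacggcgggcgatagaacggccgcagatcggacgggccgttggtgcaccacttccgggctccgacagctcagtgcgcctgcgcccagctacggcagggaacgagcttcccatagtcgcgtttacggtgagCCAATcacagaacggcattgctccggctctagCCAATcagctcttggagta
Ube2c, chr2:164769679-164769897, plus strand: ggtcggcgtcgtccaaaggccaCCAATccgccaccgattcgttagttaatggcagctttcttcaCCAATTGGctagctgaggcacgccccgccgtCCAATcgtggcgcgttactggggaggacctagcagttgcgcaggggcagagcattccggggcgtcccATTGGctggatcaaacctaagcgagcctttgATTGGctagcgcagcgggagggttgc

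In Cdc20 the CHR core began 18 bases and a CCAAT box 53 bases before the RefSeq start. Ccnb2 held 3 CCAAT boxes, at 87, 54 and 21 bases, and Aurka held 2, at 51 and 19 bases. Ube2c held 6, of which CCAAT at 186 bases and its reverse complement at 183 bases overlapped in letters. In Ube2c a CHR core in reverse (TTCAAA) began 29 bases before the RefSeq start, past the end of the stretch shown. Plk1 held CCAAT 14 bases before the start, and no TTTGAA upstream of it. No TTTGAA was found in the window of Ccnb1.

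Total counts ran from 25574203 to 47687872 in the first experiment and from 11625862 to 40959309 in the second, and at these depths the lowest count of any member in any library was 116 and 131. The groups follow the sample titles, with the hour of the first sampling and day 7 of the second experiment taken from the study's methods. Other label fields disagree with the titles in most samples, and the genotype field says WT for all 48. The Nos2 level could not check the genotype: it was 1.40 to 7.28 CPM (counts scaled by library size) in the 9 WT tumors of day 7 and 1.15 to 5.92 CPM in the 9 iNOS KO tumors, the groups overlapped, and the injected cells carry Nos2. Melanoma markers were high in all 48 tumors, with 10 of 10 detected and a sum of 9707 to 21283 CPM. Of the T cell markers 4 of 10 were at 0 in at least 1 tumor of each experiment, of the keratinocyte markers 9 and 7, and of the muscle markers 5 and 5. The 1502 sensory receptor genes (of smell, pheromones and taste) serve here as a measure of background: their counts per kilobase of exon, taken over the exons of all genes, give the share of a library that an even background would hold. This estimate was at most 0.761% in the first experiment. In the second it was 8.84% for WT anti-PD-1 replicate 3, 3.11% for WT anti-PD-1 replicate 4 and 2.18% for iNOS KO untreated replicate 1. It was at most 0.554% for the other 15. The score and many of the correlations of day 7 are thus also given without those 3 libraries. So are the medians of the day 7 comparisons that hold one of them. The numbers of the replicates are those of the titles, and the 3 tumors of a condition came from different mice. The p-values set a difference against the spread between tumors treated alike, taken over all conditions of an experiment. Conditions of unlike spread thus share the same estimate.

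All 40 genes were well expressed in both experiments. Levels between genes are compared in CPM per kilobase of exon, with the exons of all annotated transcripts of a gene joined, as medians over the 30 tumors of the first experiment and the 18 of the second. The order of the genes thus depends on the annotated exon length, and which transcripts were in use was not measured. Among the proliferation markers, Mki67 (chr7:135689784-135716361 in mm10), which encodes the Ki-67 antigen of the mitotic chromosome surface, was the highest of the 40, at 131 and 142 CPM per kb. Top2a, the topoisomerase that untangles sister chromatids, had 48.3 and 43.9. Cdca3, a cell division cycle associated gene, had 28.4 and 28.9. Ccna2, the cyclin of S phase and early mitosis, ranked second with 63.7 and 62.3, far above the mitotic cyclins Ccnb1 (10.2 and 10.3) and Ccnb2 (25.9 and 29.01) and above their kinase Cdk1 (11.4 and 12.1 CPM per kb, chr10:69335146-69352938). The kinases covered the whole range. Plk1, which drives mitotic entry and spindle formation, had 51.8 and 47.99 CPM per kb, Aurka of the spindle poles 20.6 and 19.8, and Aurkb of the chromosomal passenger complex 12.9 and 14.4. Nek2, a kinase of centrosome separation, had 9.89 and 9.23, and Ttk, which starts the spindle checkpoint, was the lowest of the 40 at 3.09 and 3.19.

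The other roles lay between these ends. Of the checkpoint genes, Bub1 had 17.7 and 18.8 CPM per kb, Bub1b 17.7 and 16.6 and Mad2l1 10.9 and 11.8. Of the genes of anaphase, Cdc20, the activator of the anaphase-promoting complex, had 28.8 and 29.1 and Ube2c, its ubiquitin-conjugating enzyme, 27.8 and 27.9, while securin (Pttg1) had 5.61 and 5.73 and separase (Espl1) 7.53 and 7.49. The kinetochore genes ran from Cenpa, the histone of centromeres (6.97 and 8.21), through Knstrn (13.4 and 14.7) and Cenpf (15.5 and 15.2) to the motor Cenpe (23.8 and 24.5). The 5 kinesins ran from Kif2c, which shortens microtubules (6.78 and 6.67), through Kif4 (9.49 and 8.65), the bipolar motor Kif11 (11.2 and 12.3) and the midzone motor Kif23 (11.502 and 11.3) to Kif20a (17.6 and 17.9). Of the spindle proteins, Ckap2l had 42.3 and 44.2 and Tpx2, the activator of Aurora A, 39.8 and 38.3, against 14.1 and 14.6 for the midzone bundler Prc1, 12.8 and 13.3 for Nusap1, 10.8 and 10.9 for Hmmr and 8.16 and 8.51 for Dlgap5. The partners of Aurora B had 27.3 and 25.2 (Incenp), 15.8 and 16.4 (Birc5, survivin) and 5.94 and 6.09 (Cdca8, borealin). The genes of cytokinesis had 22.7 and 23.5 (Racgap1), 21.5 and 20.7 (Ect2) and 16.96 and 15.5 (Anln, anillin). The order of the 40 was nearly the same in both experiments (Spearman rho 0.997 across genes, which are not replicates). Counts of Ccna2, Plk1, Nek2, Cdc20, Ube2c, Knstrn, Kif20a, Kif4, Nusap1, Prc1, Ckap2l and Cdca8 are uncertain where a gene on the other strand overlaps their exons, since the kit marks strand but the setting of the count is not given. Top2a overlaps a gene on its own strand (Gm23451). Ccnb1, Ccnb2 and Kif4 have named pseudogenes that could share reads.

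**Figure D1:**
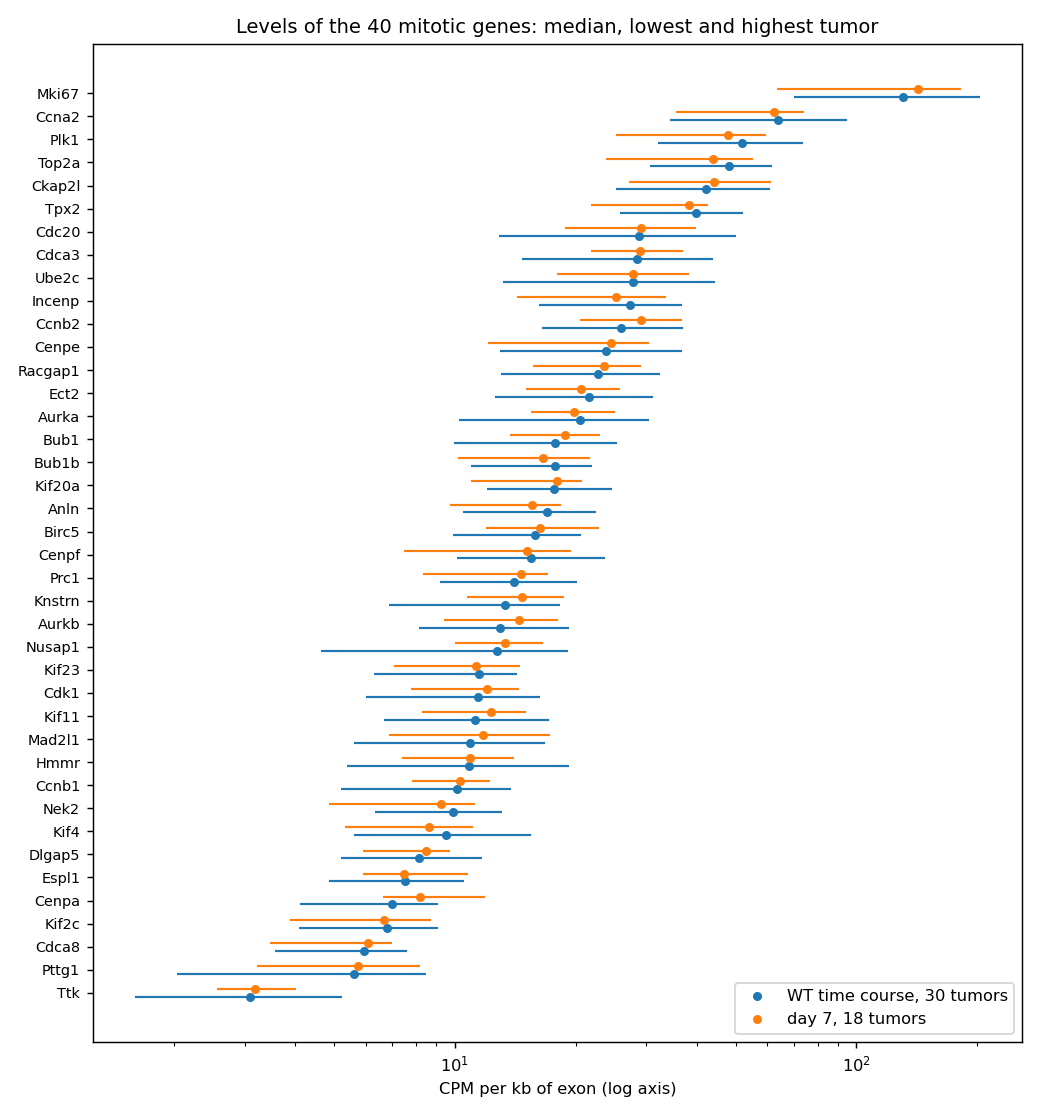
Level of each of the 40 genes in CPM per kb of exon on a log axis, with a point at the median and a line from the lowest to the highest tumor, for each experiment. Mki67 stands at the top with a median of 131 CPM per kb in the first experiment and Ttk at the bottom with 3.09, and the order is nearly the same at day 7.

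Between tumors a member's highest level was typically 2.44 times its lowest in the first experiment, from 2.00 for Bub1b to 4.18 for Pttg1. At day 7 the ratio was typically 1.93, from 1.56 for Ccnb1 to 2.88 for Mki67, and without the 3 libraries of highest background 1.65, from 1.33 for Tpx2 to 2.53 for Pttg1. A score was taken per tumor as the mean of log2(CPM + 0.5) over the 40 genes, so that 1 unit is 1 doubling on that scale. In the first experiment the score ran from 5.66 in IgG day 1 replicate 4 to 6.70 in untreated 6 h replicate 4, a 2.06-fold range. The lowest condition mean was 5.82 ± 0.16 (SD, n = 3) for IgG at day 1, and the highest was 6.51 ± 0.33 for untreated tumors at 6 h. At day 7 the score ran from 5.80 to 6.46, a 1.57-fold range, with the lowest mean in WT anti-PD-1 (6.07 ± 0.25) and the highest in WT untreated tumors (6.42 ± 0.03). Without the 3 libraries of highest background it ran from 5.996 to 6.46, a 1.38-fold range. The SD within conditions was 0.26 in the first experiment and 0.16 at day 7 (0.10 without the 3), so that much of the spread lay between tumors treated alike.

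The tumors of a condition could lie far apart. Untreated tumors at 0 h scored 6.64, 6.45 and 5.79, and replicate 3 had 38 of the 40 genes below their median over the experiment, while the others had 39 above it. That tumor also held 6978 CPM of keratinocyte markers and 7313 CPM of muscle markers, whose part in its low score was not tested. Anti-PD-1 at day 1 gave 5.82, 6.44 and 5.87, anti-PD-1 at day 3 gave 6.39, 5.93 and 6.53, and untreated tumors at 6 h gave 6.12, 6.70 and 6.70. The 3 IgG tumors of day 1 scored 5.84, 5.66 and 5.97, all below 6.00, with 40, 40 and 39 of the 40 genes below their medians.

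One tumor split the list. In IgG 6 h replicate 6, the library with the fewest counts of the first experiment, 12 members had their highest level of the 30 tumors (Mki67, Top2a, Bub1, Ttk, Cenpe, Cenpf, Kif11, Kif23, Kif4, Hmmr, Ect2 and Anln) while 4 had their lowest (Aurka, Cdc20, Pttg1 and Espl1). No other tumor of that experiment had more than 1 member at its highest and any at its lowest. Cdc20 measured 56.2, 59.8 and 24.1 CPM in the 3 IgG tumors of 6 h and Aurka 51.1, 59.8 and 26.01 CPM, with replicate 6 last. Kif4 measured 52.2, 55.5 and 85.4 CPM and Ttk 14.7, 16.2 and 25.8 CPM, so that replicate 6 was above the others in these. The 12 genes had joined exons of 4354 bases or more (median 7681), and the 4 a median of 2265.5 bases with 8749 for Espl1. The score of this tumor (6.35) lay between those of the other IgG tumors of 6 h (6.29 and 6.41).

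Differences between conditions took 43.6% of the sum of squares of the score in the first experiment and 50.8% in the second, where the number of conditions alone gives 31.03% and 29.4%. Taken gene by gene the median was 40.4% and 49.0% over the members, against 32.3% and 42.9% over all tested genes of at least 1 CPM. Without the 3 libraries of highest background the share at day 7 was 47.3% for the score, where the number of conditions gives 35.7%, and the median was 41.7% over the members and 41.6% over all genes.

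**Figure D2:**
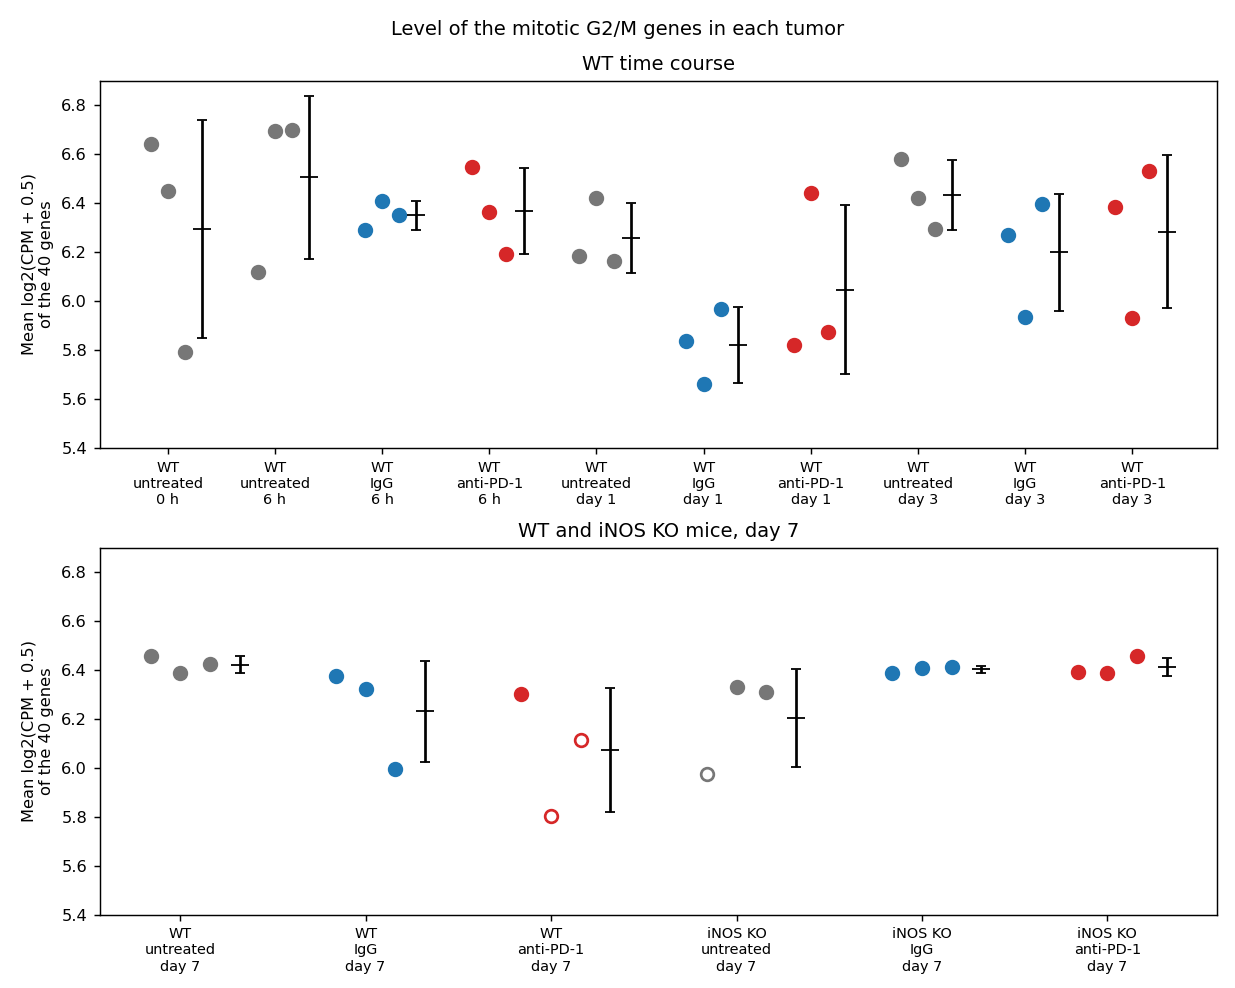
Mean log2(CPM + 0.5) of the 40 genes in each of the 48 tumors, by condition, with bars at the mean ± SD of 3 tumors. Open circles mark the 3 libraries of highest background. The 3 IgG tumors of day 1 lie between 5.66 and 5.97, and the lowest tumor of day 7 (5.80) is an open circle of WT anti-PD-1.

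The members moved together. In the first experiment the median Pearson r over the 780 pairs of members was 0.76 across 30 tumors, and 86.9% of the pairs were above 0.5, against a median of 0.0184 and 10.3% over pairs of all tested genes of at least 1 CPM. After the mean of each condition was taken out the median was 0.74, so that tumors treated alike also differed in the 40 genes together. Racgap1, the GTPase-activating protein of the cleavage furrow, followed the mean of the other 39 most closely (r = 0.979), and Incenp, the scaffold of the chromosomal passenger complex, least (0.418). At day 7, across 18 tumors, the median over pairs was 0.58 and 60.0% were above 0.5, against 0.0157 and 13.1%. It was 0.36, with 33.3% above 0.5, without the 3 libraries of highest background. The points of these correlations share 1 library each, so that depth, scaling and tissue content move all genes of a point at once, and they are given as a description.

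Cdk1 and Mad2l1 followed the other members closely in the first experiment and less closely at day 7, where the 3 libraries of highest background weighed on the value. Their r with the mean of the other members was 0.956 and 0.948 in the first experiment and 0.071 and 0.133 in the second, or 0.483 and 0.658 without those 3 libraries. Cenpa (0.787, then -0.05) and Pttg1 (0.570, then 0.266) had low values at day 7 as well, which were -0.08 and -0.04 without the 3. Within the day 7 tumors Cdk1 was most like Mad2l1 (r = 0.789) and Knstrn (0.752). Both pairs were also high without the 3 libraries (0.775 and 0.863) and in the first experiment (0.913 and 0.930). Cdk1 ran from 38.3 to 71.3 CPM over the 18 tumors, as given with the day 7 comparisons.

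**Figure D3:**
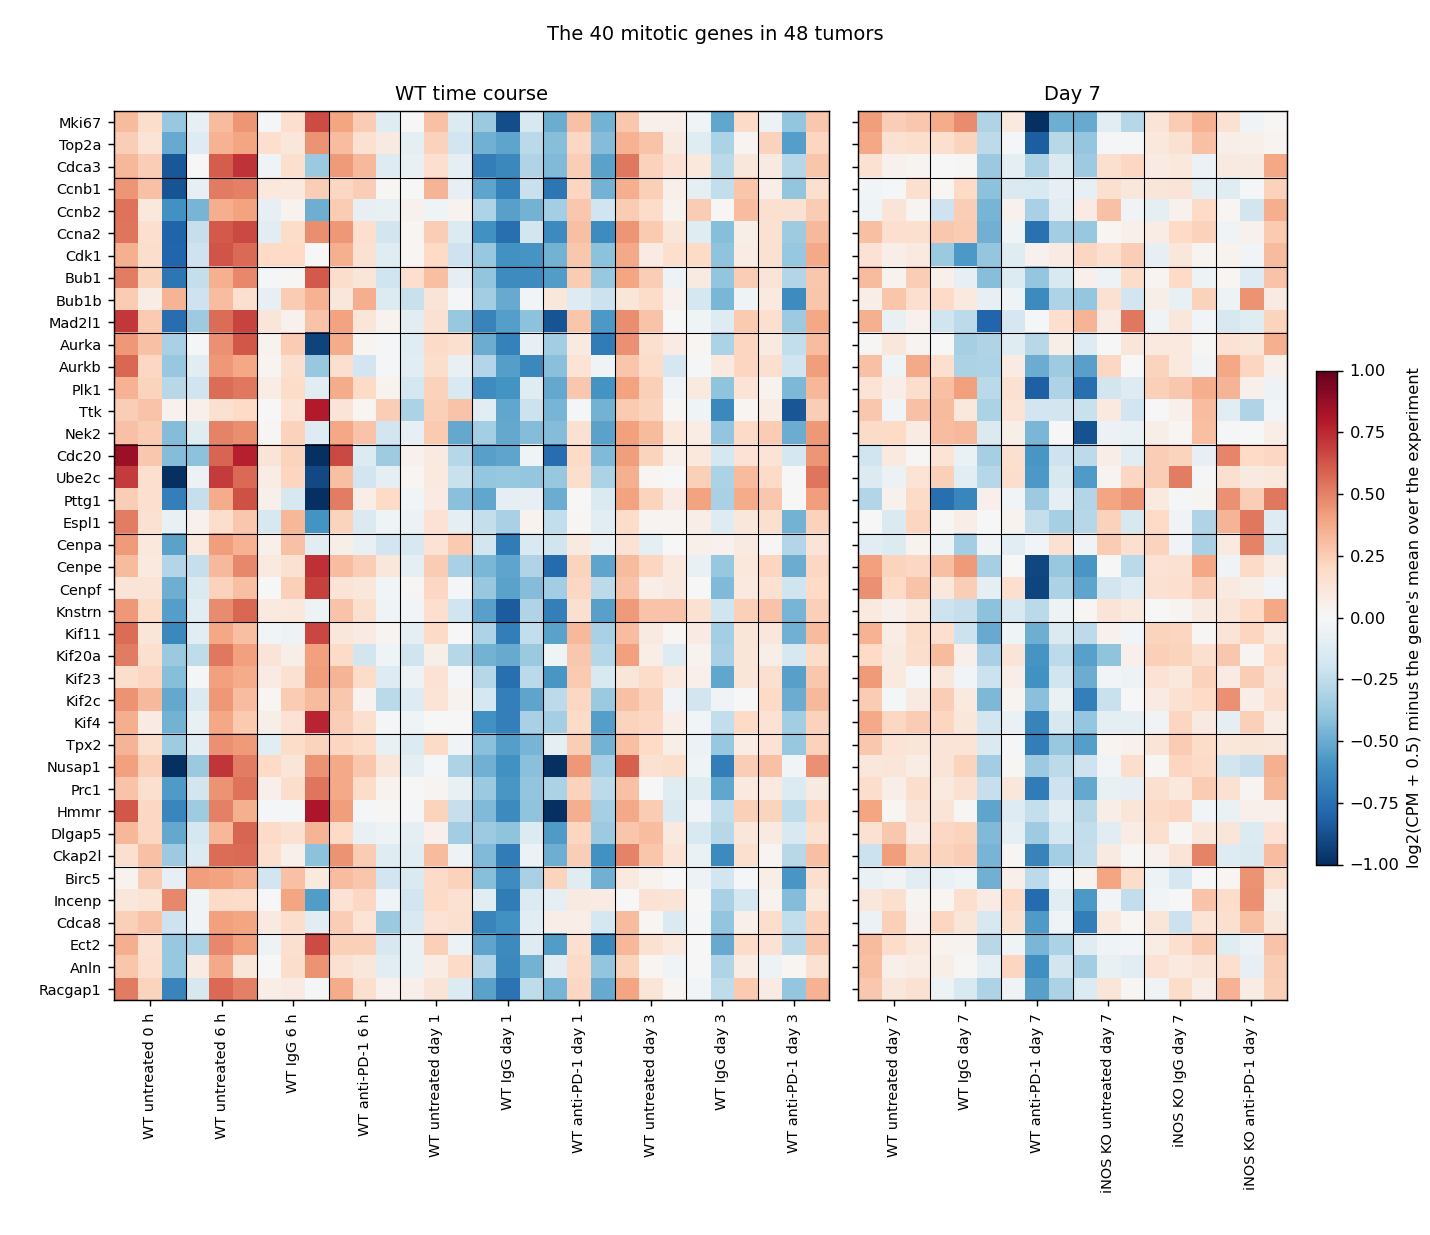
Difference of each of the 40 genes (rows, grouped by role) from its mean over the experiment, in log2(CPM + 0.5) and clipped at 1 in both directions, in 48 tumors (columns, 3 per condition). Whole columns change colour together: the IgG day 1 columns have 40, 40 and 39 of 40 genes below their medians.

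The score followed the melanoma content of the tumor in the first experiment. Across its 30 tumors the r with the mean log2 level of 10 melanoma markers was 0.864 (rho 0.878), and it was 0.844 without the 2 tumors farthest from the median. It was -0.783 with leukocyte, -0.693 with macrophage and -0.618 with fibroblast markers, and -0.252 with T cell markers. The r with 40 genes of G1/S and DNA replication was 0.937, with 61 other mitotic genes 0.990, and with 12 CDK inhibitors and antiproliferative genes -0.649. In the 18 tumors of day 7 the closest measure outside the cell cycle was the background, with r = -0.916 (rho -0.843). That value was -0.881 without the 2 farthest tumors and -0.780 in the 15 tumors without the 3 of highest background. The r with total counts was 0.890, and 0.670 in the 15. The r with melanoma markers was 0.631 and dropped to 0.195 without the 2 farthest tumors (0.658 in the 15), and the r with leukocyte markers was -0.102 in all 18 and -0.729 in the 15. With T cell markers it was -0.777 in all 18 and -0.568 in the 15. In all 18 it was -0.664 with adipocyte, 0.064 with macrophage and 0.264 with fibroblast markers. With the G1/S genes the r at day 7 was 0.776 (0.879 in the 15), and with the 61 other mitotic genes 0.912 (0.916 in the 15). With the 12 CDK inhibitors and antiproliferative genes it was 0.268 in all 18, of the other sign from the first experiment. All these measures come from the same libraries and scaling as the score, and the part of tissue content, of background and of depth in it was not tested.

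**Figure D4:**
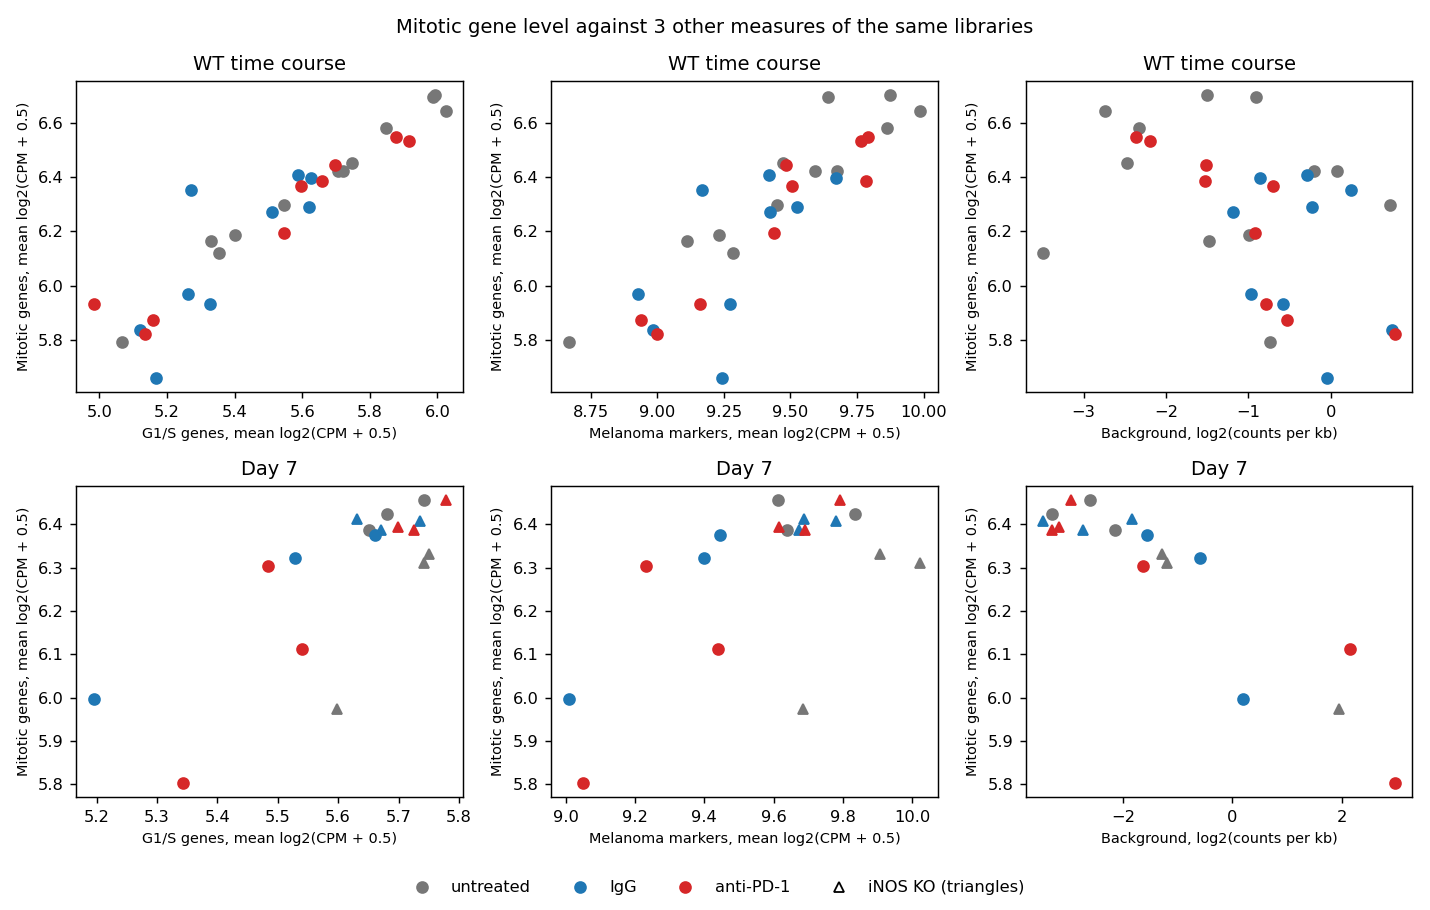
The score of the 40 genes (vertical axis, mean log2(CPM + 0.5)) against the score of G1/S genes, the mean log2 level of melanoma markers and the log2 background counts per kb, for the 30 tumors of the WT time course (upper row) and the 18 of day 7 (lower row). Colours give treatment and triangles iNOS KO. Melanoma markers follow the score in the upper row (r = 0.864), and background falls along it in the lower row (r = -0.916).

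Comparisons were made with edgeR's quasi-likelihood test with Benjamini-Hochberg adjustment over all 26848 or 30837 genes tested, all 40 members among them. A gene was called at an adjusted p under 0.05, and an unadjusted p under 0.05 was counted as well. In none of the 22 comparisons and in neither test of any difference among conditions was a member called by edgeR, while DESeq2 called members at day 7 only, as given below. The share of all genes that DESeq2 called is not given here, so that its counts of members cannot be set against all genes. In 10 of the comparisons no member had even an unadjusted p under 0.05, among 1.94% to 7.42% of all genes that did. Comparisons within a time point share their untreated or IgG tumors and are not independent of each other. The members that are named by their small p are a description of which genes came closest. Medians and shares of all genes include many genes of low level. A mean of at least 1 CPM was reached by 15109 of the 26848 genes and by 15899 of the 30837. The lowest value of a member in any tumor was 4.07 CPM in the first experiment and 6.45 CPM at day 7. The members are thus not set against genes of like level, and the part of the background in the day 7 contrasts was not tested.

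**Figure D5:**
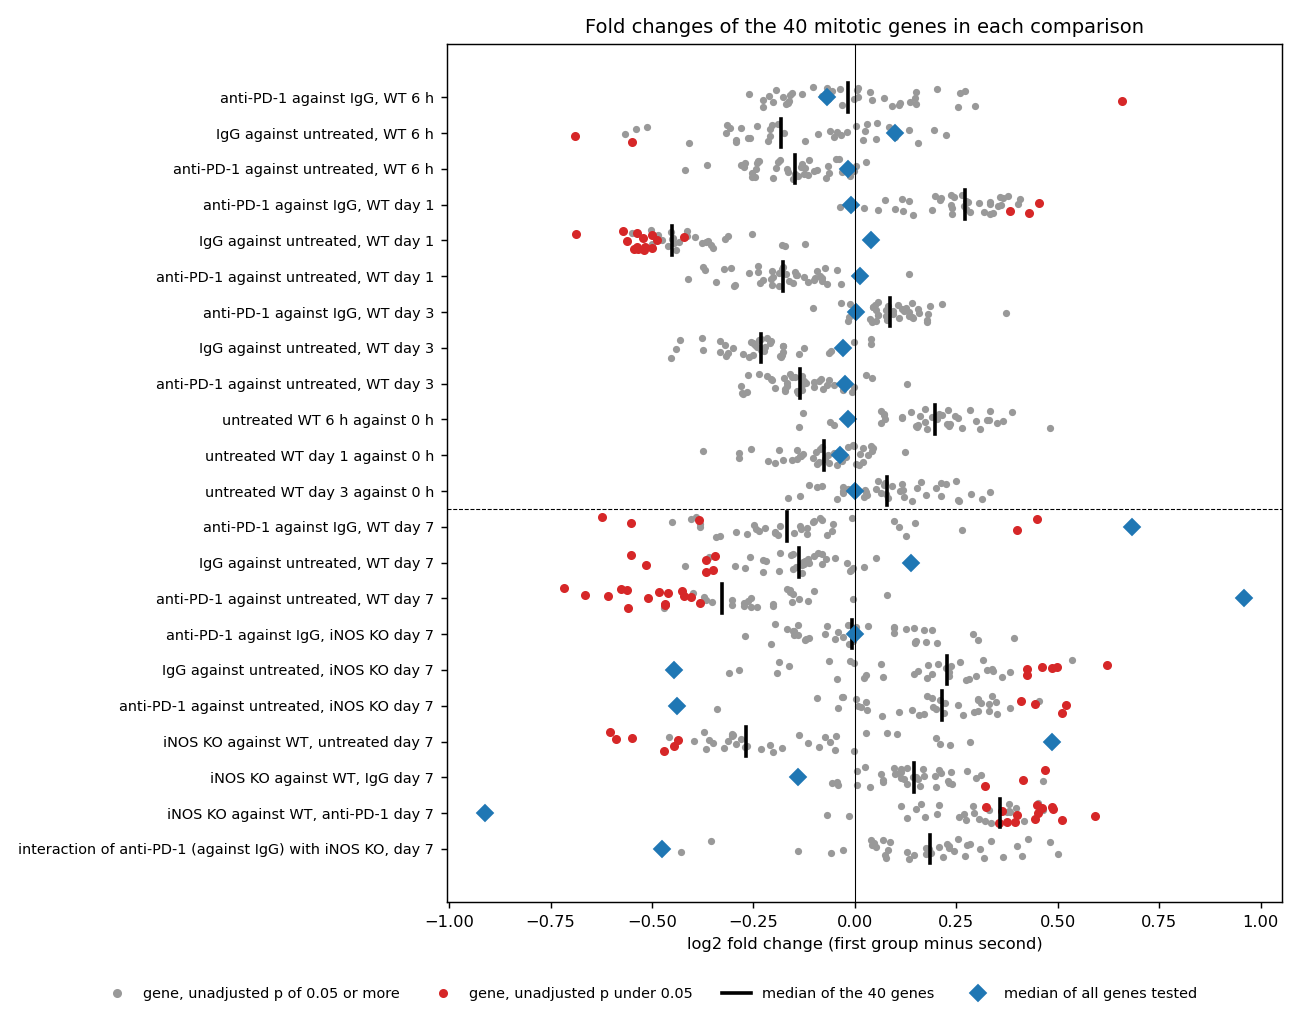
Log2 fold change of each of the 40 genes (points) in each comparison (first group minus second), with red for an unadjusted p under 0.05, a black bar for the median of the members and a blue diamond for the median of all tested genes. A dashed line separates the experiments. All 40 points lie below 0 for IgG against untreated at day 1. At day 7 the member medians lie on the other side of 0 from the medians of all genes in 9 of 10 comparisons. The latter include many genes of low level, and the part of the background in that contrast was not tested.

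At 6 h the mitotic genes differed little. The median log2 fold change of the 40 was -0.02 between anti-PD-1 and IgG, -0.18 between IgG and untreated, and -0.15 between anti-PD-1 and untreated tumors, and each library left out in turn gave -0.06 to 0.13, -0.32 to -0.12 and -0.29 to -0.04. With the background as a covariate the medians were -0.16 for anti-PD-1 against IgG, 0.029 for IgG against untreated and -0.11 for anti-PD-1 against untreated. The first of these lies outside its range over the libraries left out. Securin (Pttg1, chr11:43420250-43426251), the inhibitor of separase, came closest in both IgG comparisons. It measured 11.2, 9.57 and 4.07 CPM after IgG, 15.5, 11.3 and 12.4 after anti-PD-1 and 9.06, 14.03 and 17.001 in untreated tumors. The IgG and anti-PD-1 tumors did not overlap, by a small gap, and the low IgG tumor was replicate 6, which was also the shallowest library of the experiment. The log2 fold changes were 0.66 ± 0.32 (SE, adjusted p = 0.967) for anti-PD-1 and -0.69 ± 0.32 (adjusted p = 0.76) for IgG against untreated. Without that tumor they were 0.35 and -0.36. Pttg1 was the 1 member with a higher level after anti-PD-1 at an unadjusted p under 0.05, as were 0.778% of all genes. Pttg1 and Cdca3 (-0.55 ± 0.26) were the 2 that were lower after IgG than in untreated tumors, as were 1.89% of all genes. On the other side, Cenpf had -0.26 ± 0.19 between the antibodies, and Ttk 0.22 ± 0.26 between IgG and untreated tumors, which was -0.07 without IgG replicate 6. Between anti-PD-1 and untreated tumors Cenpa (-0.36 ± 0.19) and Ube2c (-0.42 ± 0.31) came closest, and Bub1b (0.03 ± 0.20) had the other sign, which turned to -0.11 without anti-PD-1 replicate 3 and to -0.06 without untreated replicate 1. By adjusted p the share of all genes called was 0%, 0% and 0%.

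At day 1, after 1 dose, the mitotic genes were lower in IgG tumors than in untreated tumors of the same day. All 40 log2 fold changes were negative, from -0.69 for Bub1 to -0.12 for Pttg1, with a median of -0.45 against 0.04 over all genes. Before adjustment a p under 0.05 was reached by 14 of the 40 in this direction and by 1.42% of all genes. In 26 of the 40 the 3 IgG tumors all lay below the 3 untreated tumors, which held for 6.36% of all genes. After adjustment no member was called (smallest adjusted p = 0.859), as 0% of all genes were. DESeq2 called none either.

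The genes that came closest act in cell division at its end and its middle. Anln (chr9:22332012-22389188), which encodes anillin, the scaffold of the contractile ring, measured 121, 95.1 and 107 CPM after IgG and 142, 157 and 170.1 CPM without treatment. The log2 fold change of Anln was -0.54 ± 0.17. Birc5, which encodes survivin, measured 39.1, 33.7 and 41.8 against 47.6, 60.03 and 61.6 CPM, a log2 fold change of -0.56 ± 0.19 (adjusted p = 0.859). In both genes the highest IgG tumor lay below the lowest untreated tumor.

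The engine of mitotic entry showed the same order. Cdk1 measured 39.7, 33.9 and 34.3 CPM after IgG and 52.5, 59.5 and 44.8 CPM without treatment (-0.54 ± 0.26). Ccnb1, its cyclin, measured 27.95, 25.1 and 34.6 against 40.6, 51.3 and 38.2 CPM (-0.57 ± 0.26). Neither pair of groups overlapped. Aurkb, the kinase that corrects faulty attachments, measured 30.8, 25.7 and 24.03 against 35.1, 42.9 and 35.9 CPM (-0.50 ± 0.22), and Top2a 289.8, 281 and 336 against 379, 474 and 354 CPM (-0.41 ± 0.22), also without overlap. Mki67 measured 1003, 703 and 1164 against 1293, 1590.2 and 1183 CPM (-0.50 ± 0.26), where the highest IgG tumor was just below the lowest untreated one. Plk1 (70.6, 72.2 and 101 against 96.9, 128 and 98.8 CPM) and Cdc20 (35.05, 35.4 and 49.8 against 52.8, 54.5 and 42.1 CPM) overlapped, each through 1 IgG tumor, replicate 6.

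By role the medians of that comparison ran from -0.54 for the cyclins and Cdk1, -0.52 for cytokinesis, -0.50 for the proliferation markers and -0.50 for the partners of Aurora B to -0.41 for the mitotic kinases, with the genes of anaphase (Cdc20, Ube2c, Pttg1 and Espl1) least low at -0.24. Marker levels of other cells moved too. All 10 melanoma markers had a lower mean after IgG (summed 10643 to 13374 CPM, against 11971 to 16459 CPM). All 10 leukocyte markers (889 to 1306 against 474 to 778 CPM), all 10 macrophage markers (615 to 1257 against 437 to 871 CPM) and all 10 T cell markers (25.7 to 80.8 against 12.01 to 28.7 CPM) had a higher mean. Their part in the result was not tested. IgG replicate 6 also held 8627 CPM of muscle markers, against at most 32.4 CPM in the other 5 tumors. The median was between -0.51 and -0.33 with each library left out.

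The mean score of the anti-PD-1 tumors of day 1 (6.05) lay between those of IgG (5.82) and untreated tumors (6.26), but the tumors themselves did not. Replicates 2 and 5 (5.82 and 5.87) lay within the IgG range of 5.66 to 5.97. Replicate 4 (6.44) lay above the highest untreated tumor (6.42). Against IgG the median of the members was 0.27 (-0.01 over all genes), with 39 of 40 above 0, and against untreated tumors -0.18. Unadjusted p-values under 0.05 were found for Kif20a, Anln and Cdca8, 3 members against 1.1% of all genes, and 5 members did not overlap, against 2.77% of all genes. Kif20a, a kinesin of the spindle midzone, measured 72.1, 89.5 and 60.7 CPM after anti-PD-1 and 53.3, 52.1 and 57.1 CPM after IgG (0.45 ± 0.21), without overlap. Anln measured 139, 169.7 and 113 CPM after anti-PD-1 (0.38 ± 0.17 against IgG), and overlapped. Anti-PD-1 replicate 4 carried most of this difference: it was the highest of the 3 in both genes, and without it the median of the 40 was -0.00035. Of the melanoma markers 8 of 10 had a higher mean after anti-PD-1 than after IgG (10939 to 15052 against 10643 to 13374 CPM). Of the T cell markers 0 of 10 did (8.44 to 33.5 against 25.7 to 80.8 CPM), of the leukocyte markers 1 of 10 (603 to 1299 against 889 to 1306 CPM), of the macrophage markers 2 of 10, of the keratinocyte markers 0 of 10 and of the adipocyte markers 0 of 8, and their part in the difference was not tested. Ttk had the other sign (-0.04 ± 0.26), which turned to 0.03 without IgG replicate 2 or anti-PD-1 replicate 2. Against untreated tumors Ttk (-0.41 ± 0.26) and Ccnb1 (-0.37 ± 0.26) came closest, and Kif20a (0.13 ± 0.21) had the other sign. No gene was called in these comparisons (0% and 0%).

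At day 3 no member came near a call. The median log2 fold change was 0.09 between anti-PD-1 and IgG (-0.03 to 0.25 with each library left out), -0.23 between IgG and untreated (-0.32 to -0.12), and -0.14 between anti-PD-1 and untreated tumors (-0.26 to 0.04). No member had an unadjusted p under 0.05. In 6 members the IgG tumors all lay below the untreated ones, against 4.67% of all genes. Top2a was among them, with 372, 324 and 412 CPM after IgG and 515, 492 and 431 CPM without treatment (-0.38 ± 0.22, adjusted p = 1). Ckap2l, a spindle protein, had -0.45 ± 0.26 in the same comparison. Cenpa differed by 0.04 ± 0.19, a sign that turned to -0.01 without untreated replicate 2. Between the antibodies Nusap1 (0.37 ± 0.34) and Bub1b (0.18 ± 0.20) came closest, with Cenpa (-0.10 ± 0.19) on the other side, or 0.02 without anti-PD-1 replicate 4. Between anti-PD-1 and untreated tumors Knstrn (-0.28 ± 0.24) and Ttk (-0.28 ± 0.26, or 0.01 without anti-PD-1 replicate 4) came closest, with Ube2c (0.13 ± 0.31, or -0.01 without anti-PD-1 replicate 5) on the other side. Calls over all genes were at 0%, 0% and 0%.

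Over time no member passed the unadjusted threshold in the untreated tumors of the first experiment. Against 0 h the median of the members was 0.20 at 6 h, -0.08 at day 1 and 0.08 at day 3, and without the low replicate 3 of 0 h these became 0.03, -0.22 and -0.07. With the background as a covariate the median at day 1 was 0.081. At 6 h Cdca3 (76.4, 116 and 126 CPM against 95.99, 90.2 and 42.1 CPM at 0 h, 0.48 ± 0.26) and Birc5 (70.3, 69.5 and 67.7 against 53.7, 62.3 and 49.6 CPM, 0.33 ± 0.19) came closest. The Cdca3 tumors overlapped and the Birc5 tumors did not. Incenp had -0.14 ± 0.19, which turned to 0.02 without that tumor. At day 1 the closest were Kif20a (-0.29 ± 0.21) and Bub1b (-0.26 ± 0.20), with Cenpf (0.12 ± 0.19, or -0.00067 without replicate 3 of 0 h) on the other side. At day 3 they were Cdca3 (0.31 ± 0.26) and Top2a (0.25 ± 0.22), with Incenp (-0.17 ± 0.19) on the other side. The share of all genes called was 0%, 0% and 0%. In the test of any difference among the 10 conditions 5 members had an unadjusted p under 0.05 (Birc5, Kif4, Knstrn, Anln and Cdca3), a share of 5 in 40 against 5.7% of all genes, and the smallest adjusted p was 0.738 for Birc5, with 0% of all genes called.

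At day 7 in WT mice the mitotic genes were lower after anti-PD-1 than in untreated tumors. The median of the 40 was -0.33 while the median of all genes was 0.96, and anti-PD-1 replicates 3 and 4 are the libraries of highest background. At an unadjusted p under 0.05 stood 15 members, all lower, against 7.17% of all genes, and 19 did not overlap, against 7.61% of all genes. Over all genes, those of low level included, 7637 were higher and 2210 lower at that p. The part of the background in these shares was not tested. edgeR called none (smallest adjusted p = 0.142, 0% of all genes). DESeq2 called 8, and the share of all genes that it called is not given here. Kif4 (chrX:100625737-100727214), a chromosome-bound kinesin, measured 44.8, 29.4 and 42.1 CPM after anti-PD-1 and 61.3, 54.3 and 56.1 CPM in untreated tumors, a log2 fold change of -0.56 ± 0.17. Cenpe (chr3:135212537-135273611), the kinetochore motor that brings chromosomes to the spindle equator, measured 195, 104 and 150.2 against 259.9, 229 and 226 CPM (-0.67 ± 0.22). In both genes all anti-PD-1 tumors lay below all untreated ones, with replicate 3 lowest and replicate 2 nearest to the untreated tumors.

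Mki67 spread most, with 1415, 637 and 942 CPM after anti-PD-1 and 1766, 1565 and 1590.0 CPM in untreated tumors (-0.72 ± 0.27, adjusted p = 0.142), and Top2a followed with 378, 215 and 314 against 498, 424 and 431 CPM (-0.58 ± 0.20). Aurkb measured 42.97, 28.7 and 31.5 against 49.9, 39.4 and 52.997 CPM (-0.46 ± 0.20) and overlapped. Ccnb1 (39.8, 39.6 and 41.7 against 43.1, 43.6 and 49.2 CPM) hardly varied and did not overlap. Birc5 (59.1, 47.3 and 55.7 against 54.3, 55.5 and 52.9 CPM) overlapped, and Cenpa differed by 0.08 ± 0.18, or by -0.08 without the 3 libraries of highest background. In the anti-PD-1 tumors 0 of 10 melanoma markers had a higher mean than in untreated tumors (10122 to 13967 against 16429 to 18437 CPM), and 10 of 10 T cell markers did (20.97 to 44.9 against 3.37 to 8.69 CPM), and their part was not tested. Without the 3 libraries of highest background, which leaves 1 anti-PD-1 tumor whose spread is taken to be like that of the other groups, the median was -0.18. With the background as a covariate it was -0.01. Leaving out replicate 2 keeps only the anti-PD-1 libraries of highest background. The median was then -0.50 with 12 members called, and the share of all genes called in that fit is not given here.

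Between IgG and untreated tumors of WT mice the members had a median of -0.14 against 0.14 over all genes, or -0.03 without IgG replicate 3. With the background as a covariate the median had the other sign, 0.039. An unadjusted p under 0.05 was reached by 6 members, all lower (Cdk1, Bub1, Kif11, Mad2l1, Racgap1 and Knstrn), and by 2.29% of all genes. In 7 members all IgG tumors lay below all untreated ones, against 6.05% of all genes. Cdk1, the kinase of mitotic entry, measured 43.9, 38.3 and 43.6 CPM after IgG, 63.3, 60.002 and 61.1 CPM without treatment and 52.6, 58.95 and 60.4 CPM after anti-PD-1. The 3 IgG tumors were the lowest 3 for Cdk1 of the 18 tumors of day 7. The iNOS KO tumors measured 66.4, 64.2 and 67.7 CPM untreated, 53.95, 61.9 and 58.2 after IgG and 58.6, 56.01 and 71.3 after anti-PD-1. The log2 fold change of Cdk1 between IgG and untreated WT tumors was -0.55 ± 0.13, the smallest p of any member in any comparison (0.000566 before and 0.565 after edgeR's adjustment). DESeq2 called it (adjusted p = 0.0074), together with Knstrn (0.0337), and 0% of all genes were called by edgeR. Knstrn, a kinetochore and spindle protein, measured 63.99, 62.8 and 55.4 CPM after IgG and 79.2, 76.3 and 79.7 CPM without treatment (-0.37 ± 0.13), without overlap. Mad2l1, which holds the spindle checkpoint, measured 86.9, 83.6 and 57.7 against 128, 94.9 and 103 CPM (-0.51 ± 0.18), again without overlap. Plk1 (0.05 ± 0.22) had the other sign, but turned to -0.05, -0.11 and -0.002 without IgG replicate 1, IgG replicate 2 and untreated replicate 2. All 10 melanoma markers had a lower mean after IgG (10731 to 15770.0 against 16429 to 18437 CPM), all 10 macrophage, all 10 T cell, all 8 endothelium and all 8 adipocyte markers a higher one, as did 9 of 10 leukocyte and 7 of 8 fibroblast markers, and their part in the result was not tested.

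Between anti-PD-1 and IgG in WT mice 33 of the 40 members had a negative and 7 a positive log2 fold change. The median was -0.17 (0.68 over all genes). Cdk1 (0.45 ± 0.13, adjusted p = 0.305) and Mad2l1 were higher after anti-PD-1 at an unadjusted p under 0.05, 2 members against 10.6% of all genes. Cenpe (-0.55 ± 0.22), Mki67 (-0.62 ± 0.27) and Bub1b were lower, 3 members against 5.75% of all genes. Mki67 measured 1710.2, 1832 and 1074 CPM after IgG and Cenpe 241, 263 and 156 CPM, and both overlapped with the anti-PD-1 tumors given above. None was called by edgeR (0% of all genes), and DESeq2 called Cdk1 (log2 fold change 0.53, adjusted p = 0.0124). Both shares of members lay near or under those of all genes. After anti-PD-1, 0 of 10 leukocyte markers had a higher mean (239.8 to 592 against 429.7 to 941 CPM), 0 of 10 macrophage markers (193.5 to 786 against 453 to 1622 CPM) and 0 of 8 fibroblast markers (504 to 4779.96 against 3276 to 7843 CPM), while 5 of 10 melanoma, 7 of 10 T cell and 10 of 10 keratinocyte markers did, and their part was not tested. Without anti-PD-1 replicate 3 the median was 0.02, and without the 3 libraries of highest background it was 0.04. Without replicate 2 it was -0.34 with 2 members called, where the share of all genes called is not given here.

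In iNOS KO mice both treated groups had higher mitotic genes than untreated tumors, with medians of 0.23 for IgG and 0.21 for anti-PD-1 while the medians of all genes were -0.45 and -0.44. The untreated group holds 1 of the libraries of high background, replicate 1, and without the 3 libraries the medians were 0.15 and 0.11. With the background as a covariate they were -0.02 and -0.05. For IgG 6 members had an unadjusted p under 0.05, all higher (Plk1, Cenpe, Cenpf, Kif20a, Kif2c and Nek2), against 2.95% of all genes. For anti-PD-1 4 did (Cdc20, Kif20a, Kif2c and Incenp), against 2.91% of all genes. All treated tumors lay above all untreated ones in 16 members for IgG, against 8.02% of all genes, and in 14 for anti-PD-1, against 5.56%. By adjusted p no member was called by edgeR or DESeq2, while edgeR called 0.188% and 0.0422% of all genes. Plk1 (chr7:122159439-122169873) measured 116, 118 and 126 CPM after IgG and 57.96, 86.5 and 89.97 CPM without treatment (0.62 ± 0.22, adjusted p = 0.302). Kif20a measured 84.9, 83.9 and 80.6 against 49.3, 54.3 and 74.4 CPM (0.49 ± 0.19). Neither overlapped, and in both genes untreated replicate 1 was the lowest tumor. All 8 fibroblast markers had a higher mean after IgG (2437 to 4009 CPM) and after anti-PD-1 (963 to 4165 CPM) than in untreated tumors (811 to 1119.8 CPM), and all 8 endothelium markers as well. Of the macrophage markers 10 of 10 were higher after IgG and 8 of 10 after anti-PD-1. Of the T cell markers 2 of 10 were higher after IgG and 0 of 10 after anti-PD-1 (4.01 to 8.24 against 10.9 to 23.5 CPM), and of the melanoma markers 2 and 1 of 10. Their part in these differences was not tested.

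Kif2c, the kinesin that removes wrong attachments, measured 38.1, 28.999 and 31.1 CPM after anti-PD-1 and 16.99, 23.6 and 27.7 CPM in untreated iNOS KO tumors (0.52 ± 0.20). Incenp measured 119.995, 145 and 110.4 against 70.9, 104 and 89.1 CPM (0.51 ± 0.20), and Cdc20 74.6, 60.95 and 61.1 against 43.99, 55.4 and 48.8 CPM (0.41 ± 0.18). None of these 3 overlapped. Mad2l1 had the other sign in both comparisons, -0.31 ± 0.18 for IgG and -0.34 ± 0.18 for anti-PD-1. Between anti-PD-1 and IgG the median was -0.01 (0.00 over all genes), and no member had an unadjusted p under 0.05. Birc5 (57.6, 78.004 and 63.5 CPM after anti-PD-1 and 55.01, 50.5 and 57.1 CPM after IgG, 0.29 ± 0.16) and Pttg1 (0.39 ± 0.24) came closest, with Ttk (-0.27 ± 0.19) on the other side, and 0% of all genes were called.

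Between genotypes the median of the members had 1 sign in untreated and the other in treated tumors. Whether the genotype difference depends on treatment against no treatment was not tested. In untreated tumors the members were lower in iNOS KO than in WT mice, with a median of -0.27 (0.49 over all genes). Before adjustment a p under 0.05 was reached by 6, all lower (Mki67, Cenpe, Cenpf, Kif20a, Nek2 and Kif4), against 3.37% of all genes. All iNOS KO tumors lay below all WT tumors in 17 members, against 8% of all genes. edgeR called none of the members and 0.587% of all genes, and DESeq2 called Cenpf (adjusted p = 0.0478). Cenpf, a large kinetochore protein of G2 and mitosis, measured 151, 193 and 200.2 CPM in iNOS KO and 300.4, 251 and 267 CPM in WT tumors (-0.59 ± 0.21, adjusted p = 0.275 by edgeR). Kif4 measured 35.9, 44.1 and 43.9 against 61.3, 54.3 and 56.1 CPM (-0.47 ± 0.17). Both were without overlap. All 10 T cell markers had a higher mean in the iNOS KO tumors (10.9 to 23.5 against 3.37 to 8.69 CPM), while 0 of 8 fibroblast markers (811 to 1119.8 against 1089 to 4303 CPM), 0 of 8 endothelium markers (185 to 227 against 238 to 273 CPM) and 1 of 10 macrophage markers did, and their part was not tested. Birc5 had the other sign, at 58.3, 75.1 and 64.7 against 54.3, 55.5 and 52.9 CPM (0.28 ± 0.16), also without overlap. The median was -0.14 without the 3 libraries of highest background and -0.0028 with the background as a covariate.

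After IgG the members were higher in iNOS KO than in WT tumors by a median of 0.15 (-0.14 over all genes), which turned to -0.060 with the background as a covariate. Unadjusted p-values under 0.05 were found for Cdk1 (0.47 ± 0.13), Mad2l1 and Knstrn (0.32 ± 0.13), 3 members against 2.15% of all genes, the same 3 whose WT IgG levels were given above. Espl1, separase, had -0.06 ± 0.19, or 0.09 without iNOS KO replicate 3. None was called by edgeR (0% of all genes) or by DESeq2. All 10 melanoma markers had a higher mean in the iNOS KO tumors (16032 to 17118 against 10731 to 15770.0 CPM), and 0 of 10 T cell markers (6.02 to 17.3 against 18.9 to 30.6 CPM), 0 of 10 macrophage markers (348 to 667 against 453 to 1622 CPM), 0 of 8 fibroblast markers (2437 to 4009 against 3276 to 7843 CPM) and 1 of 10 leukocyte markers did, and their part was not tested.

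After anti-PD-1 the members were higher in iNOS KO than in WT tumors by a median of 0.36 (-0.91 over all genes). At an unadjusted p under 0.05 stood 14 members, all higher in iNOS KO, against 5.69% of all genes. The groups did not overlap in 14, against 5.33% of all genes. Over all genes, those of low level included, 1755 were higher and 8204 lower at that p. The part of the background in these shares was not tested. Racgap1 (chr15:99620496-99651656) measured 206, 171 and 191 CPM in iNOS KO and 158, 111 and 129.9 CPM in WT tumors (0.51 ± 0.16, adjusted p = 0.127). Knstrn measured 80.2, 84.8 and 96.5 against 66.5, 61.1 and 71.3 CPM (0.40 ± 0.13). In both the lowest iNOS KO tumor was above the highest WT tumor. Among the widest were Pttg1 (15.6, 13.4 and 16.4 against 10.999, 8.59 and 10.4 CPM, 0.59 ± 0.24) and Cdc20 (74.6, 60.95 and 61.1 against 59.1, 35.1 and 45.8 CPM, 0.49 ± 0.18), and the 4 genes of anaphase had the highest median of the 10 roles, 0.47. Ttk differed by -0.07 ± 0.19, or by 0.10 without WT replicate 2 and by 0.05 without iNOS KO replicate 2. edgeR called none (0% of all genes), and DESeq2 called Racgap1 (adjusted p = 0.00389) and Knstrn (0.012). The WT group holds the libraries of highest background: without these and iNOS KO untreated replicate 1 the median was 0.18, and with the background as a covariate -0.07. Leaving out WT replicate 2 keeps only the WT libraries of highest background. The median was then 0.53 with 11 members called, and the share of all genes called in that fit is not given here. All 10 melanoma markers had a higher mean in the iNOS KO tumors (16234 to 18033 against 10122 to 13967 CPM), and all 10 T cell markers a lower one (4.01 to 8.24 against 20.97 to 44.9 CPM), and their part was not tested.

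The test of whether the anti-PD-1 difference from IgG depends on the genotype gave no member with an unadjusted p under 0.05. The median of the interaction was 0.18 (-0.47 over all genes), with Espl1 (0.50 ± 0.27) and Bub1b (0.48 ± 0.26) closest and Mad2l1 (-0.43 ± 0.26) on the other side, and 0% of all genes were called. Without WT anti-PD-1 replicate 3 the median was -0.0015, and without the 3 libraries of highest background -0.036. In the test of any difference among the 6 conditions of day 7, 8 members had an unadjusted p under 0.05 (Cdk1, Knstrn, Mad2l1, Racgap1, Pttg1, Cenpe, Kif4 and Cenpf), 8 of 40 against 28.2% of all genes. By edgeR the smallest adjusted p was 0.0712 for Cdk1, and 1.66% of all genes were called. DESeq2 called 6 members there, without a share of all genes to set beside them.

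Other cell cycle genes give the surroundings of these results, with every listed gene tested: 40 of G1/S and DNA replication, 61 other mitotic genes, 16 of the anaphase-promoting complex and its regulators, 23 transcription regulators of the cell cycle, and 12 CDK inhibitors and antiproliferative genes. In all comparisons 2 of them were called by edgeR, both in the test of any difference at day 7: Fen1, the flap endonuclease of DNA replication (adjusted p = 0.0478), and Spc25, of the outer kinetochore (0.0252). For IgG against untreated tumors at day 1 none was called, 20 of the 61 other mitotic genes were lower at an unadjusted p under 0.05 and 0 of the 61 were above 0, beside 1.42% of all genes lower at that level. Their median was -0.43. Tacc3, a spindle protein, had -0.66 ± 0.19, and Cdc25c, the phosphatase that activates Cdk1, -0.65 ± 0.22. Of the 40 genes of G1/S, 1 reached that level, Cdc25a (-0.41 ± 0.17), although 39 were below 0 with a median of -0.32. Rrm2, a subunit of ribonucleotide reductase, had -0.58 ± 0.29. In the anaphase-promoting complex all 16 genes were below 0 with a median of -0.19, and its inhibitor Fbxo5 (-0.49 ± 0.24) and its subunit Cdc27 (-0.41 ± 0.24) came closest. The regulators had a median of -0.17, with the late repressor E2f7 (-0.46 ± 0.21) and Rbbp4 (-0.32 ± 0.16) closest. On the other side 3 of the 12 antiproliferative genes were higher at that level, beside 4.01% of all genes: Btg1 (0.67 ± 0.25), Cdkn1c (1.53 ± 0.62) and Btg2 (1.08 ± 0.47).

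For anti-PD-1 against untreated tumors of WT mice at day 7, 11 of the G1/S genes, 15 of the other mitotic genes, 3 of the anaphase-promoting complex, 11 of the 23 regulators and 1 of the antiproliferative genes were lower at an unadjusted p under 0.05, beside 7.17% of all genes. The closest in each list were Fen1 (-0.65 ± 0.16) and Cdc6 (-0.49 ± 0.16) of replication, Ncaph of condensin (-0.56 ± 0.16) and Knl1 of the kinetochore (-0.49 ± 0.16), Cdc27 (-0.50 ± 0.18) and Anapc1 (-0.49 ± 0.18), Rbl2 (-0.50 ± 0.16) and Nfya (-0.50 ± 0.18), and Ccng1 (-0.47 ± 0.19) and Cdkn2c (-0.34 ± 0.21). For iNOS KO against WT after anti-PD-1, 15, 13, 2, 6 and 3 genes of these lists were higher, beside 5.69% of all genes. The closest were Fen1 (0.60 ± 0.16) and Mcm5 (0.54 ± 0.16), Cenpm (0.53 ± 0.17) and Spag5 (0.42 ± 0.15), Anapc5 (0.49 ± 0.18) and Fzr1 (0.51 ± 0.20), E2f1 (0.67 ± 0.20) and Nfyc (0.54 ± 0.17), and Cdkn2d (0.46 ± 0.18) and Wee1 (0.47 ± 0.20). None of these was called. Both comparisons use the WT anti-PD-1 group, whose replicates 3 and 4 had an estimated background of 8.84% and 3.11%. The medians of the members in these comparisons were -0.0091 and -0.070 with the background as a covariate. They were -0.18 and 0.18 without the 3 libraries of highest background. Such values are not given here for the other lists, and the part of the background in their counts was not tested.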

How the data were processed

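RNA from 48 mouse tumors was measured by strand-specific RNA-seq (NuGEN). The authors deposited counts per gene, 1 column per tumor. Per the submitters' notes the tools were cutadapt 1.8.1, STAR 2.7.7a and RSEM 1.3.0 on mm10, and the methods name GENCODE vM21. The counting program is named differently by the deposited table than by the methods, and its strand setting is not given in the sources used here. All 55450 identifiers matched GENCODE vM21, and no column was left unused. Columns were matched to samples, and samples to groups, by the titles.

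Each experiment was normalized and tested on its own (R 4.3.3): TMM scaling, a filter at a minimum count of 10, and edgeR 4.0.16's quasi-likelihood test over all of its conditions, with Benjamini-Hochberg adjustment over all genes tested and a threshold of 0.05. Log2 fold changes are given with their standard errors. CPM used TMM library sizes, and log2 levels a pseudocount of 0.5. Scores and correlations used Python 3.11.15 (pandas 2.3.3, numpy 2.4.6), and figures used matplotlib 3.10.9. The procedure was checked on simulated data.

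The members and lists were chosen with earlier results of these data known. By a written rule, 8 members of different roles get values in every tumor of at least 1 comparison. In a comparison with no call, the 2 members of smallest p and the 1 with the largest difference of the other sign are named. Members named beyond this rule were chosen after their values were seen. Alternatives were DESeq2 1.42.0, its size factors, no filter, the background as a covariate or subtracted, only the groups compared, each library left out, a replicate block, pseudocounts of 1 and 0.1, and, chosen after seeing the data, day 7 without the 3 libraries of highest background.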

Additional observations from a re-analysis of the deposited data

How the results depend on the processing

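No member was called in any of the 22 comparisons or in the tests of any difference with no filter on low counts, DESeq2's size factors, the background as a covariate or subtracted, only the groups compared, or the replicate block. The block used numbers only: libraries of the same number correlated at a median of -0.03 (65 pairs, first experiment) and -0.02 (36 pairs, day 7). DESeq2 called 1 member for anti-PD-1 against IgG, 2 for IgG and 8 for anti-PD-1 against untreated in WT mice at day 7, 1 and 2 for iNOS KO against WT when untreated or after anti-PD-1, and 6 for any difference. Leaving out 1 library gave 0 to 2, 0 to 12, 0 to 11 and 0 to 6 members called for anti-PD-1 against IgG and against untreated in WT mice, iNOS KO against WT after anti-PD-1 and any difference at day 7, each highest without WT anti-PD-1 replicate 2 (any difference was 2 without iNOS KO untreated replicate 1). The share of all genes called under DESeq2 or with a library left out is not given here, and the cause was not tested. Under DESeq2 or without that library, 13 values of 7 named members (Cdk1, Knstrn, Kif4, Cenpe, Mki67, Cenpf and Racgap1) passed the threshold.

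With the background as a covariate the day 7 medians were 0.0082, 0.039 and -0.0091 (anti-PD-1 against IgG, IgG and anti-PD-1 against untreated, WT), -0.024 and -0.053 (IgG and anti-PD-1 against untreated, iNOS KO), -0.0028, -0.060 and -0.070 (iNOS KO against WT when untreated, after IgG and after anti-PD-1) and -0.031 (interaction). Without the 3 libraries of highest background, chosen after seeing the data, those of anti-PD-1 against IgG in WT mice, iNOS KO against WT after anti-PD-1 and the interaction were 0.044, 0.18 and -0.036. Leaving out 1 library gave medians of -0.34 to 0.021 and -0.50 to -0.19 (anti-PD-1 against IgG and against untreated, WT, day 7), 0.20 to 0.53 (iNOS KO against WT after anti-PD-1), -0.0015 to 0.35 (interaction) and -0.00035 to 0.38 (anti-PD-1 against IgG, day 1). With DESeq2's size factors the score range of day 7 was 0.49, against 0.65, and with background subtracted the median r over pairs was 0.71 and 0.41. The other 281 recomputed medians moved by less than the spread between replicates. The 18 recomputed correlations with marker lists were counted as unchanged, but leaving out tumors moved some of them at day 7. The r with leukocyte markers was -0.102 in all tumors and -0.729 without the 3 libraries of highest background. With melanoma markers the r was 0.631, and 0.195 without the 2 farthest tumors.

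Small fold changes turned sign. Over the libraries left out, Ttk ran from -0.071 to 0.31 (IgG against untreated, 6 h), -0.21 to 0.030 (anti-PD-1 against IgG, day 1), -0.48 to 0.015 (anti-PD-1 against untreated, day 3) and -0.14 to 0.10 (iNOS KO against WT, anti-PD-1). Bub1b ran from -0.11 to 0.16 (anti-PD-1 against untreated, 6 h), Cenpa from -0.19 to 0.017 and -0.0065 to 0.11 (anti-PD-1 against IgG and IgG against untreated, day 3) and -0.092 to 0.11 (anti-PD-1 against untreated, WT, day 7), and Ube2c from -0.013 to 0.26 (anti-PD-1 against untreated, day 3). Incenp ran from -0.22 to 0.023 (6 h against 0 h), Cenpf from -0.00067 to 0.24 (day 1 against 0 h), Plk1 from -0.11 to 0.23 (IgG against untreated, WT, day 7) and Espl1 from -0.19 to 0.087 (iNOS KO against WT, IgG). The replicate block turned Bub1b at 6 h to -0.087 and Ttk at day 1 to 0.043, and the covariate turned Ube2c at day 3 to -0.022. With no filter Cenpa (anti-PD-1 against untreated, WT, day 7) was -0.039 and Ttk (iNOS KO against WT, anti-PD-1) 0.049, and Cenpa was -0.078 without the 3 libraries.

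The lowest count of any member in any library was 116. The r of the score with total counts was 0.890 at day 7, and the part of depth in the score was not tested. An estimated background of up to 8.84% of a library and 3 tumors per condition limit the comparisons.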

Other observations

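The balance of mitotic to replication genes was set out per tumor as the score of the 40 genes minus the same score over 40 genes of G1/S and DNA replication. In the first experiment this difference of mean log2(CPM + 0.5) ran from 0.492 in IgG day 1 replicate 4 to 1.08 in IgG 6 h replicate 6. At day 7 it was 0.714, 0.736 and 0.744 in untreated WT tumors and 0.376, 0.580 and 0.569 in untreated iNOS KO tumors, so that the 3 iNOS KO tumors lay below the 3 WT tumors, replicate 1 of high background lowest. It was 0.716, 0.673 and 0.782 after IgG and 0.694, 0.662 and 0.678 after anti-PD-1 in iNOS KO tumors. In WT tumors it was 0.715, 0.795 and 0.80 after IgG and 0.819, 0.460 and 0.573 after anti-PD-1, where the low values belong to replicates 3 and 4, the libraries of highest background. No test was made of this difference.

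Among 14755 genes outside the 40 with a mean of at least 1 CPM in both experiments, 10 followed the score most closely within conditions, by the mean of the Pearson r of both experiments after condition means were taken out (n = 30 and 18 tumors). They were Prr11, with a mean r of 0.94, Klhdc10 (0.94), Got2 (0.93), Dis3 (0.93), Cnot6 (0.93), Rasgrp3 (0.93), Rrm1 (0.93), Sae1 (0.93), Ogdh (0.92) and Pkp4 (0.92). Rrm1, the large subunit of ribonucleotide reductase, is on the list of G1/S genes, and Got2 and Ogdh encode mitochondrial enzymes. Prr11 had 0.972 in the first experiment and 0.904 at day 7, and Rasgrp3, a Ras activator, 0.894 and 0.961. The points share libraries, depth, tissue content and background with the score, so that these values are a description. At day 7 the r of the score with the background was -0.834 after condition means were taken out. The ranking is not given here without the 3 libraries of highest background.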
